A study of Mus musculus with 6 samples.

Results

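The integrin and laminin genes are the 37 rows, of 55453 gene symbols in the deposited count table, whose names stand for an integrin alpha chain (18 genes), an integrin beta chain (8) or a laminin chain (11). The rule that picks them reads only the symbol. The libraries are poly(A)-selected RNA of SB28, a glioma line of the mouse whose strain is given as C57BL/6. In the labels 3 are PP2A KO, titled PP2AcKO and called knockout here, and 3 are Wild Type, titled PP2AcWT. PP2Ac is the subunit of protein phosphatase 2A that removes phosphate from serine and threonine. No treatment, time or age stands in the sample labels. How the knockout was made, and whether a group is a single clone or several cultures, is not given in the sources used here. The design text of the series places SB28 tumours in wild-type mice and in mice whose floxed PP2Ac is deleted by Cre under the LysM promoter, which is active in myeloid cells, whereas the sample labels attach the genotype to SB28. The design text and the labels thus differ, and the sources used here do not settle which cells carried the deletion.

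Integrins are adhesion receptors made of an alpha and a beta chain, and the pair decides the ligand. Partners of beta1 read fibronectin, collagens and laminins, those of alphav read proteins with an RGD motif and release TGF-beta from its latent form, and those of beta2 and beta7 belong to leukocytes. Laminins are trimers of an alpha, a beta and a gamma chain, form the sheet of the basement membrane, and are ligands of alpha3, alpha6 and alpha7 integrins. In brain tumours, integrins and laminins are known from invasion along vessels and from the vascular basement membrane.

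Levels are given as CPM, counts scaled to a common library size with TMM factors. Total counts ran from 38735864 to 49344079 per library. Fold changes are knockout over wild type, on the log2 scale, and adjusted p values are from the quasi-likelihood test of edgeR, adjusted by Benjamini-Hochberg across the 14877 genes tested. Whether the libraries were separate cultures is not given, so the p values reflect only how these libraries vary, and that variation may be technical. The labels name PP2Ac and not which of its genes was targeted. Ppp2ca, 1 of these genes, had 274, 244 and 247 CPM in the wild-type and 217, 187 and 193 CPM in the knockout libraries (log2 fold change -0.36 with SE 0.08 and adjusted p = 0.00377). Its groups did not overlap, but most of the Ppp2ca message was still present in knockout. Ppp2cb had 87.1, 83.3 and 87.4 CPM in the wild-type and 122, 126 and 125 CPM in the knockout libraries (log2 fold change 0.54 with SE 0.06 and adjusted p = 6.34e-05). Its groups did not overlap either, with the knockout higher. Markers of other cells were read from the same table. Of 7 T and NK cell genes 6 had no count in any library, and 10 macrophage and microglia genes summed to 0.227 to 0.431 CPM in wild type and 0.741 to 0.805 CPM in knockout. The 6 pericyte and fibroblast markers summed to 1591 to 2272 CPM in wild type and 1262 to 1830 CPM in knockout. The 6 endothelial markers summed to 399 to 431 CPM in wild type and 419 to 456 CPM in knockout. Genes of both lists moved in both directions, and which cells held these RNAs was not tested. The 4 astrocyte markers summed to 9.67 to 11.3 CPM in wild type and 4.10 to 5.003 CPM in knockout. Of these Gfap had 1, 1 and 3 counts in wild type and 3, 3 and 4 in knockout, Aqp4 had none, Aldh1l1 fell by 1.60 and Slc1a3 rose by 2.24 on the log2 scale.

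The knockout libraries held a different mix of RNA of receptor and matrix chains from the wild-type libraries. Itga5, the fibronectin receptor chain, was 2.12-fold higher in knockout, and Itga2, a collagen receptor chain, 7.13-fold higher. Itgb1, the common partner of both, was 1.63-fold lower. Among laminins, the alpha chains Lama5 and Lama2 were 2.18-fold and 7.04-fold lower, while Lama3 and Lamb3, chains of epithelial laminin, were higher from very low levels.

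Of the 37 genes, 29 passed the filter on low counts and 8 did not. The 8 were Itga11, Itgb6, Itgad, Itgae, Itgal, Itgam, Itgax and Lama1, and Lama1 had no count in any library. Among the 29, 11 rose, 13 fell and 5 did not pass the test. That is 82.8% called, beside 64% of all genes tested, and 37.9% and 44.8% by direction beside 31.9% higher and 32.1% lower in all genes. At least 2-fold changes made up 14 of the 29 (48.3%, against 21.7% of all genes tested), 6 higher and 8 lower. The libraries of the groups did not overlap for 24 of the 29, beside 68.3% of all genes. The median log2 fold change of the 29 was -0.32, that of all genes -0.01, and the medians without sign were 0.84 and 0.47. These shares describe the genes that passed the filter and carry no test of the list.

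**Figure D1:**
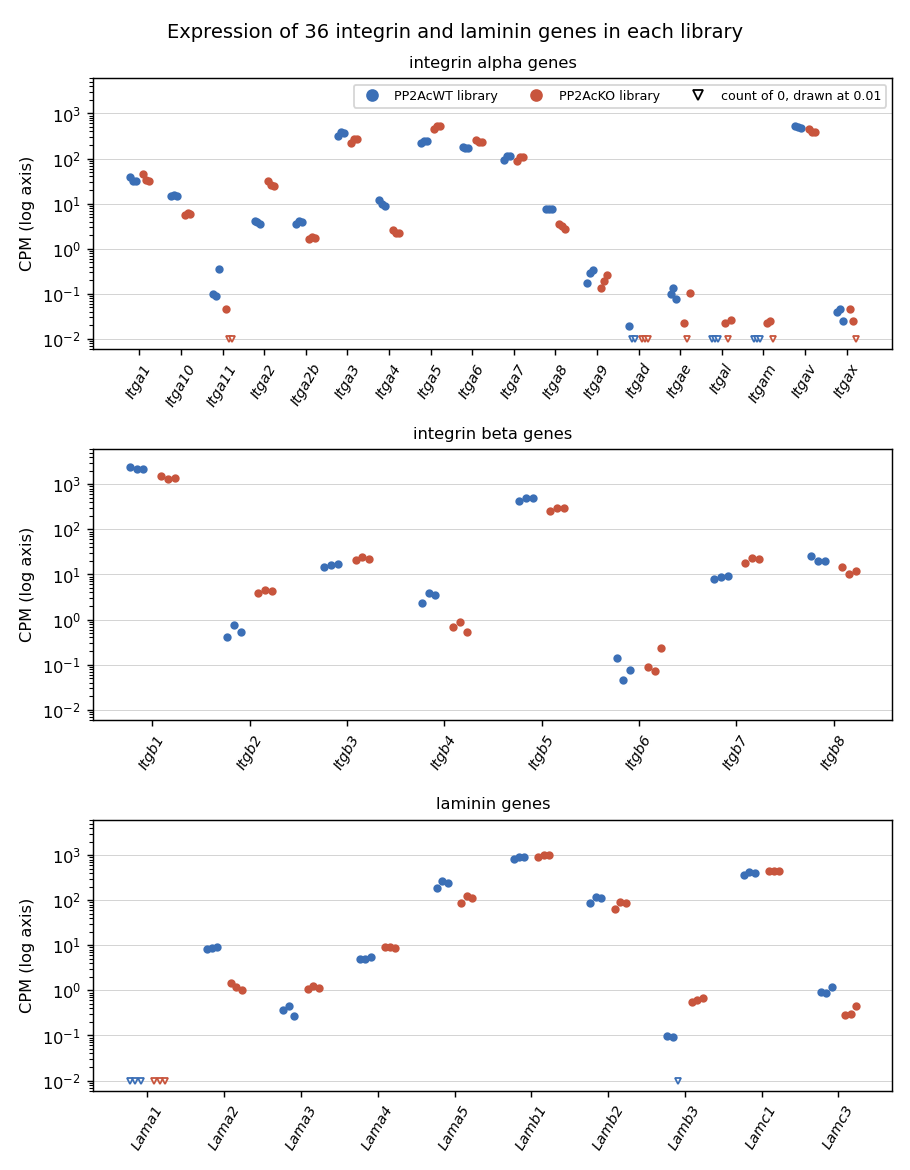
CPM of 36 of the 37 genes in each of the 6 libraries on a log axis, 1 point per library, with blue for wild type and red for knockout. Open triangles at 0.01 mark a count of 0. Itgb1 is the highest gene in both groups, and Lama1 is at 0 in every library.

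**Figure D2:**
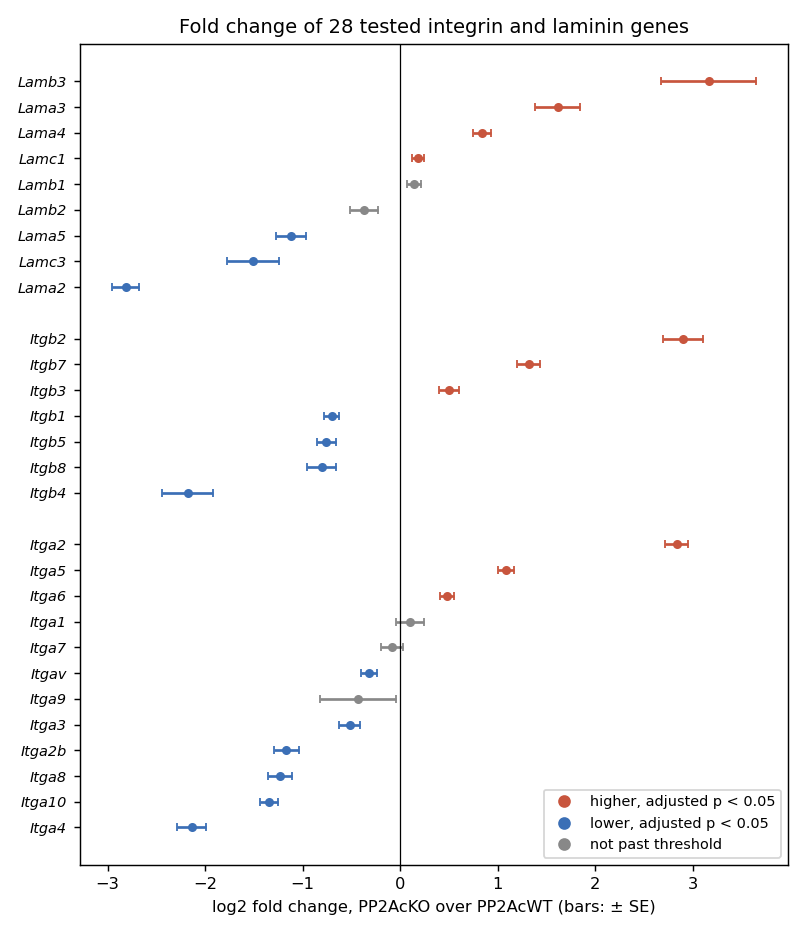
Log2 fold change, knockout over wild type, of 28 of the 29 tested genes, with bars of 1 SE. Red genes rose, blue genes fell and grey genes did not pass an adjusted p of 0.05. The values run from -2.82 for Lama2 to 3.16 for Lamb3.

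The 2 libraries numbered 1 stood apart from the others of their groups. For 14 of the 29 tested members library 1 was the lowest of its group in both groups, and for 7 it was the highest in both, beside 31% and 30.5% of all genes tested. Lama5, Lamb2, Itga3, Itga7 and Itgb5 were low in both libraries numbered 1, and Itga1, Itga4, Itgb8 and Itgb1 were high in both. Without both of these libraries, 12 members rose and 14 fell, and no member lost its call. What separates these libraries is not given in the sources used here.

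**Figure D3:**
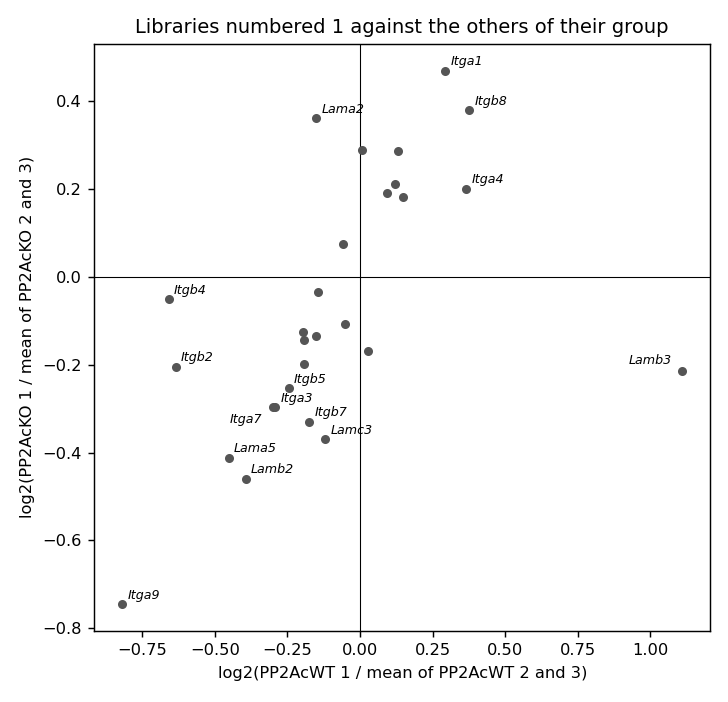
Log2 ratio of library 1 to the mean of libraries 2 and 3, for wild type on the horizontal and for knockout on the vertical axis, 1 point for each of 28 tested members. Itga9, Lama5 and Lamb2 lie low on both axes and Itga1 and Itgb8 high on both. Lamb3, with 5, 4 and 0 wild-type counts, stands alone on the right, 1.11 above the mean of wild-type libraries 2 and 3 on the log2 scale.

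Of the 4 alpha chains that bind RGD ligands 1 rose, Itga5, and 3 fell, beside 64% called of all genes tested. Itga5 (chromosome 15, 103344286 to 103366763, minus strand, GRCm38) pairs with beta1 as the main fibronectin receptor. It stood at 216, 248 and 245 CPM in wild-type libraries 1 to 3, and 456, 523 and 524 CPM in knockout libraries 1 to 3, from 237 ± 17.8 to 501 ± 38.9 CPM (SD, n = 3; log2 fold change 1.08 with SE 0.08 and adjusted p = 5.9e-06). The lowest knockout library was well above the highest wild-type library. Itgav, which pairs with beta1, beta3, beta5, beta6 and beta8, was at 535, 498 and 485 CPM in wild-type libraries 1 to 3, and 445, 384 and 386 CPM in knockout libraries 1 to 3 (log2 fold change -0.32 with SE 0.08 and adjusted p = 0.00631). The groups again did not overlap, with the knockout lower, and 5.90% of its exon bases also lie in exons of the other strand. Itga8, whose product binds nephronectin, was at 7.50, 7.53 and 7.40 CPM in the wild-type and 3.61, 3.22 and 2.68 CPM in the knockout libraries (log2 fold change -1.23 with SE 0.12 and adjusted p = 2.93e-05), lower in every knockout library. Itga2b, the platelet fibrinogen receptor chain, was at 3.51, 4.08 and 3.95 CPM in the wild-type and 1.61, 1.81 and 1.71 CPM in the knockout libraries (log2 fold change -1.17 with SE 0.13 and adjusted p = 5.92e-05). It too was low throughout and lower in knockout, and 5 of 6 platelet and megakaryocyte markers had no count, the sixth, Gp1ba, having 1 count in 1 library.

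The laminin-binding alpha chains were all well expressed and changed by less than 2-fold. Itga3 had 313, 388 and 377 CPM in wild-type libraries 1 to 3, and 218, 266 and 268 CPM in knockout libraries 1 to 3 (log2 fold change -0.52 with SE 0.11 and adjusted p = 0.00268), so every knockout library lay under every wild-type one. Itga6 went the other way, with 179, 168 and 168 CPM in wild-type libraries 1 to 3, and 261, 229 and 229 CPM in knockout libraries 1 to 3 (log2 fold change 0.48 with SE 0.07 and adjusted p = 0.000468), and its groups did not overlap either. Itga7, known from muscle and glia, had 92.6, 117 and 112 CPM in wild-type libraries 1 to 3, and 87.7, 109.6 and 106 CPM in knockout libraries 1 to 3 (log2 fold change -0.08 with SE 0.11 and adjusted p = 0.544), and these groups overlapped. With the replicate number as a block Itga7 passed at adjusted p = 0.0409, at an unchanged log2 fold change of -0.08. The counts add up all splice forms, so the A and B forms of the alpha3 and alpha6 tails cannot be told apart.

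Of the 3 tested collagen receptor chains Itga2 had the largest fold change. Itga2 (chromosome 13, 114833081 to 114932100, minus strand, GRCm38) was at 4.05, 3.86 and 3.55 CPM in wild-type libraries 1 to 3, and 31.0, 26.0 and 24.9 CPM in knockout libraries 1 to 3, from 3.82 ± 0.254 to 27.3 ± 3.28 CPM (log2 fold change 2.83 with SE 0.12 and adjusted p = 1.35e-07). Its knockout values were all far above the wild-type ones. Itga1, which lies 21.0 kb away on the same strand, was at 38.5, 31.6 and 31.2 CPM in wild-type libraries 1 to 3, and 44.5, 32.6 and 31.7 CPM in knockout libraries 1 to 3 (log2 fold change 0.10 with SE 0.14 and adjusted p = 0.549). The groups overlapped, and both libraries numbered 1 were the highest of their group. Per kilobase of exon, the ratio of Itga2 to Itga1 was 0.275, 0.318 and 0.297 in wild type and 1.82, 2.08 and 2.05 in knockout. With the longest transcript as the length it was 0.163, 0.188 and 0.176 in wild type and 1.08, 1.23 and 1.21 in knockout. Itga10, a collagen receptor chain known from cartilage, fell from 14.5, 15.5 and 14.5 CPM in the wild-type libraries to 5.53, 6.03 and 5.90 CPM in the knockout libraries (log2 fold change -1.35 with SE 0.09 and adjusted p = 2.4e-06), and a gene on the same strand shares 33.5% of its exon bases. Itga11, a fibroblast chain, was below the filter with 5, 4 and 14 counts in wild type and 2, 0 and 0 in knockout, a knockout over wild-type ratio of 0.0940 (95% exact counting interval 0.0107 to 0.381). Such intervals cover counting error only, and 1 wild-type library held 14 of the counts. Without a filter on low counts Itga11 passed the test as lower (adjusted p = 0.00437).

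Itga2 and Itga5 are the alpha chains that rose at least 2-fold, so the 250 bases before their RefSeq start sites are shown (GRCm38.p6, minus strand, chr13:114932101-114932350 and chr15:103366792-103367041). Capitals mark GC boxes, the letters GGGCGG on either strand.
Itga2: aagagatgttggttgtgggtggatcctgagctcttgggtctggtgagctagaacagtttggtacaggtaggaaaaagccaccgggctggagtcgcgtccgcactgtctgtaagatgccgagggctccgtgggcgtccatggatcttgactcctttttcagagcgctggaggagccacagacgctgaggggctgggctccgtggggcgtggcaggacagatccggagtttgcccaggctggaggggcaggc
Itga5: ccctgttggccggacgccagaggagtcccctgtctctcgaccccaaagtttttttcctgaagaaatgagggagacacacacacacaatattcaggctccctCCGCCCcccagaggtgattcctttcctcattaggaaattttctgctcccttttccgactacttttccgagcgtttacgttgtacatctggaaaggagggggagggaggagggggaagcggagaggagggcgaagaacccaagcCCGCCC
Of the 37 members 23 matched a promoter window of 250 bases before and 50 after the start, in 26 windows. GC boxes were found in 12 of the 26 windows, those of 11 genes, and in 35.7% of all 32851 windows of this length. AP-1 sites (TGANTCA) were in 3 of the 26 windows (7.81% of all windows), PU.1 sites (GAGGAAGT) in 4 (3.2%), and TEAD sites (CATTCCA) in 1 (4.29%). The CArG box of SRF was in 2 of the 26 windows (1.63% of all windows) and the kappa-B site in 3, those of 2 genes (8.46%). All were searched on both strands. The Itga5 stretch holds 2 GC boxes, and the Itga2 stretch holds none of the 6 motifs, though the Itga2 window has a GC box just after the start. A match describes letters in a window and is not a measured binding site.

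The chains alpha4 and alpha9, which bind VCAM-1, fibronectin and tenascin, were minor. Itga4 was at 12.1, 9.82 and 8.94 CPM in wild-type libraries 1 to 3, and 2.55, 2.20 and 2.25 CPM in knockout libraries 1 to 3 (log2 fold change -2.14 with SE 0.14 and adjusted p = 2.54e-06). Every knockout library was far under the lowest wild-type value. Cerkl on the other strand shares 8.04% of the Itga4 exon bases. Itga9 had 9, 13 and 13 counts in wild type and 6, 8 and 10 in knockout (log2 fold change -0.43 with SE 0.39 and adjusted p = 0.357), with overlapping groups. Its log2 fold change has a wide error at this depth, and a difference was not detectable. Vcam1, the counter-receptor of alpha4beta1, fell as well, from 176, 154 and 160.2 CPM in the wild-type libraries to 69.6, 56.6 and 58.5 CPM in the knockout libraries (log2 fold change -1.41 with SE 0.10 and adjusted p = 2.5e-06).

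The alpha chains of leukocytes were close to absent. Itgal had 0, 0 and 0 counts in wild type and 1, 0 and 1 in knockout, and Itgam had 0, 0 and 0 counts in wild type and 1, 1 and 0 in knockout. Itgax had 2, 2 and 1 counts in wild type and 2, 1 and 0 in knockout, Itgad had 1 count in 1 library, and Itgae, which pairs with beta7, had 5, 6 and 3 counts in wild type and 1, 0 and 4 in knockout. Itgal, Itgam, Itgax and Itgad lie at or near the floor of 3 counts over a group, so no fold is given for them. For Itgae the ratio of knockout to wild type was 0.386 (95% exact counting interval 0.109 to 1.14), with overlapping groups. Itgam shares 68.7% of its exon bases with a gene on the same strand, where reads may have been dropped or split.

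The 7 tested beta chains all passed the test, 3 higher and 4 lower in knockout, beside 64% of all genes tested (31.9% higher and 32.1% lower). Itgb1 (chromosome 8, 128685654 to 128733200, plus strand, GRCm38), the partner of most alpha chains, was at 2495, 2251 and 2252 CPM in wild-type libraries 1 to 3, and 1555, 1351 and 1390.5 CPM in knockout libraries 1 to 3, from 2333 ± 140.5 to 1432 ± 108 CPM (log2 fold change -0.70 with SE 0.08 and adjusted p = 6.19e-05). It was the highest member per kilobase of exon in both groups, and its knockout values all lay under the wild-type ones. Itgb5, a vitronectin receptor chain that pairs with alphav, was at 430.4, 509.8 and 511 CPM in wild-type libraries 1 to 3, and 254, 301 and 304 CPM in knockout libraries 1 to 3 (log2 fold change -0.76 with SE 0.10 and adjusted p = 0.000143). These groups were separate as well, again with the knockout lower. Itgb8, which pairs with alphav and releases TGF-beta, was at 25.8, 20.2 and 19.5 CPM in the wild-type and 14.7, 10.5 and 12.2 CPM in the knockout libraries (log2 fold change -0.81 with SE 0.15 and adjusted p = 0.00132), lower in each knockout library. Itgb3, another alphav partner, was at 14.5, 16.3 and 17.0 CPM in the wild-type and 21.1, 24.9 and 21.7 CPM in the knockout libraries (log2 fold change 0.50 with SE 0.10 and adjusted p = 0.00195), higher in each knockout library than in any wild-type one. Itgb6, the epithelial partner of alphav, had 7, 2 and 3 counts in wild type and 4, 3 and 9 in knockout and was not tested, with a ratio of 1.44 (95% exact counting interval 0.640 to 3.339).

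Itgb4, the laminin receptor chain of hemidesmosomes, fell from a low level. It was at 2.35, 3.95 and 3.47 CPM in wild-type libraries 1 to 3, and 0.695, 0.903 and 0.537 CPM in knockout libraries 1 to 3 (log2 fold change -2.18 with SE 0.26 and adjusted p = 8.25e-05), and a gene of the other strand shares 7.66% of its exon bases. Its only partner is alpha6, which rose. Per kilobase of exon the ratio of Itga6 to Itgb4 was 59.4, 33.2 and 37.6 in wild type and 292, 197 and 331 in knockout, and with the longest transcript as the length 110.0, 61.5 and 69.7 in wild type and 542, 365 and 614 in knockout. On both scales the lowest of the 3 knockout ratios was well above the highest wild-type one.

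Both beta chains of leukocyte integrins rose while their alpha partners stayed near the floor or fell. Itgb2 (chromosome 10, 77530252 to 77565708, plus strand, GRCm38), the partner of alphaL, alphaM, alphaX and alphaD, had 21, 33 and 21 counts in wild type and 169, 185 and 165 in knockout. In CPM this was 0.411, 0.748 and 0.529 CPM in the wild-type and 3.79, 4.51 and 4.22 CPM in the knockout libraries (log2 fold change 2.89 with SE 0.20 and adjusted p = 3.23e-06). The groups were far apart on a low level. Itgb7, the partner of alpha4 and alphaE, was at 7.97, 8.84 and 9.14 CPM in wild-type libraries 1 to 3, and 18.4, 23.6 and 22.6 CPM in knockout libraries 1 to 3 (log2 fold change 1.32 with SE 0.12 and adjusted p = 1.32e-05). Its groups did not overlap, and Itga4 moved the opposite way. The leukocyte markers moved unequally beside these genes. Ptprc, the pan-leukocyte CD45, had 11, 10 and 10 counts in wild type and 7, 2 and 2 in knockout, Laptm5 had 5, 7 and 11 counts in wild type and 7, 5 and 4 in knockout, and Cd52 had none. Cd53, a leukocyte tetraspanin, rose from 5.89, 3.58 and 5.21 CPM in the wild-type libraries to 37.6, 27.6 and 28.4 CPM in the knockout libraries (log2 fold change 2.67 with SE 0.19 and adjusted p = 3.58e-06). The 5 pan-leukocyte markers summed to 4.20 to 6.56 CPM in wild type and 28.0 to 38.2 CPM in knockout, and nearly all of this was Cd53. Coro1a, the only other tested marker of these 5, did not pass the threshold. S100a8, a neutrophil marker, had 2, 2 and 2 counts in wild type and 146, 141 and 146 in knockout, while S100a9 and Mpo had none. The part of leukocytes in the Itgb2 and Itgb7 levels was not tested. In bulk RNA, more cells of a type and more RNA per cell cannot be told apart.

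To compare levels between genes, CPM was divided by the kilobases of exon in GENCODE M21. On this scale Itga3, Itga5 and Itgav were the leading alpha chains, and Itga5 moved to the front in knockout. The share of Itga5 in all alpha chain RNA per length was 23.3%, 24.5% and 24.8% in wild type and 41.9%, 45.2% and 45.2% in knockout. For Itga3 the share was 29.2%, 33.1% and 32.9% in wild type and 17.3%, 19.9% and 20.02% in knockout. For Itgav it was 26.5%, 22.6% and 22.5% in wild type and 18.8%, 15.2% and 15.3% in knockout, and in knockout Itga5 was the largest in every library. The order of Itga5 and Itgav in wild type depended on the length used. Itga6 held 10.6%, 9.08% and 9.28% in wild type and 13.1%, 10.8% and 10.8% in knockout, and Itga2 held 0.303%, 0.263% and 0.248% in wild type and 1.97%, 1.55% and 1.49% in knockout. With the longest transcript as the length, the share of Itga5 was 18.5%, 19.7% and 19.98% in wild type and 33.9%, 37.3% and 37.5% in knockout. The share of Itgav was then 28.7%, 24.8% and 24.7% in wild type and 20.7%, 17.1% and 17.3% in knockout, above Itga5 in each wild-type library and under it in each knockout library.

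In CPM per kilobase, the beta chain total was lower and the alpha chain total higher in every knockout library. Summed alpha chains came to 188, 206 and 201 in wild type and 221, 235 and 235 in knockout, and summed beta chains to 741, 704 and 704 in wild type and 465, 431 and 441 in knockout. The share of Itgb1 in the beta chains was 82.5%, 78.4% and 78.3% in wild type and 81.9%, 76.8% and 77.3% in knockout, with overlapping groups. Relative to the sum of its 12 alpha partners, Itgb1 per length was 3.27, 2.69 and 2.76 in wild type and 1.73, 1.41 and 1.45 in knockout. The knockout ratios were all under the wild-type ones. These are ratios of RNA levels and hold no count of receptor pairs.

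**Figure D4:**
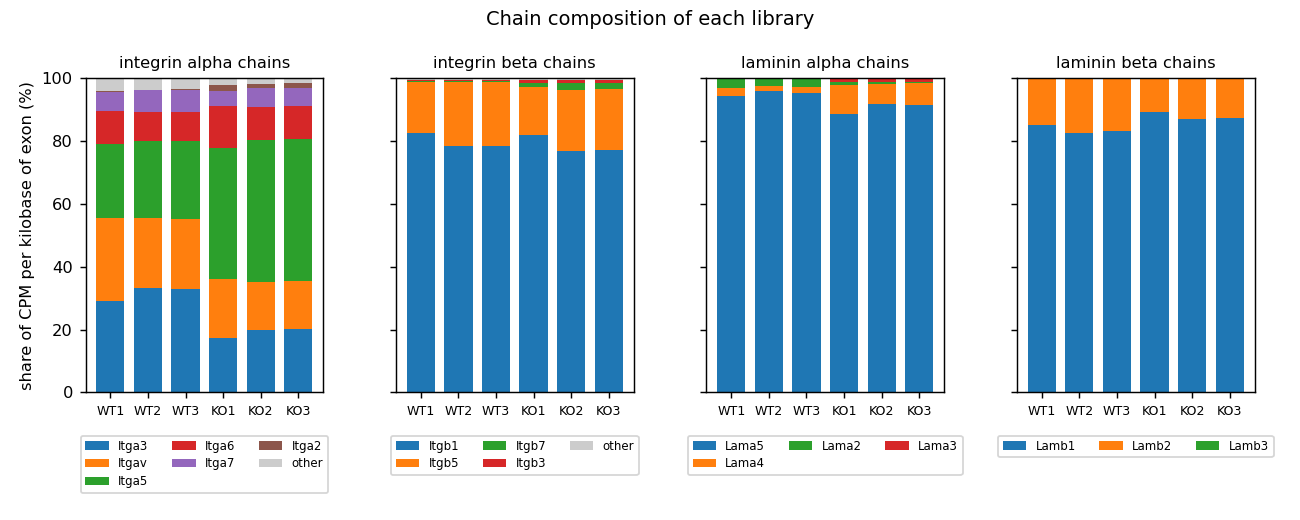
Share of each chain in the summed CPM per kilobase of exon of its class, for integrin alpha, integrin beta, laminin alpha and laminin beta chains, 1 bar per library. The Itga5 block (green) is larger in all 3 knockout libraries, and Lama4 (orange) holds more of the laminin alpha RNA there.

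In the laminins, 5 of the 10 tested genes rose, 3 fell and 2 did not pass. That is 80% called, beside 64% of all genes tested. Lama5 (chromosome 2, 180176373 to 180225859, minus strand, GRCm38), the alpha chain of laminin-511 and laminin-521, was at 186, 265 and 245 CPM in wild-type libraries 1 to 3, and 87.5, 122 and 110.5 CPM in knockout libraries 1 to 3, from 232 ± 41.0 to 107 ± 17.7 CPM (log2 fold change -1.12 with SE 0.15 and adjusted p = 0.000206). The highest knockout library lay under the lowest wild-type library. Lama2, the alpha chain of the laminins of muscle and Schwann cells, was at 8.21, 8.78 and 9.44 CPM in wild-type libraries 1 to 3, and 1.46, 1.22 and 1.05 CPM in knockout libraries 1 to 3 (log2 fold change -2.82 with SE 0.14 and adjusted p = 4.12e-07). Among the 29 tested members it had the largest fall. Lama4, an alpha chain of vessel and mesenchymal laminins, was at 4.97, 4.94 and 5.41 CPM in wild-type libraries 1 to 3, and 9.43, 9.08 and 8.84 CPM in knockout libraries 1 to 3 (log2 fold change 0.84 with SE 0.09 and adjusted p = 6.31e-05), higher in every knockout library. Of the laminin alpha RNA per length, Lama5 still made up 94.5%, 95.9% and 95.3% in wild type and 88.8%, 91.9% and 91.5% in knockout. For Lama4 this share was 2.38%, 1.69% and 1.99% in wild type and 9.04%, 6.44% and 6.91% in knockout, and for both genes the groups did not overlap. With the longest transcript as the length the share of Lama4 was 4.55%, 3.26% and 3.83% in wild type and 16.4%, 12.03% and 12.8% in knockout.

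Lama5 and Lama2 are the laminin alpha chains that fell at least 2-fold, and the 250 bases before their RefSeq start sites are shown for comparison (GRCm38.p6, minus strand, chr2:180225860-180226109 and chr10:27616943-27617192). Capitals mark GC boxes in Lama5 and a CArG box in Lama2.
Lama5: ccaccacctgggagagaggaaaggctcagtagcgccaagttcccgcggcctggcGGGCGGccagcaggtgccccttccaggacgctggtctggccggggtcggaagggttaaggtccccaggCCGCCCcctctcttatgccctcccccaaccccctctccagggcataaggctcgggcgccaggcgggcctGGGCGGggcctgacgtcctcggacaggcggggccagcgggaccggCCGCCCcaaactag
Lama2: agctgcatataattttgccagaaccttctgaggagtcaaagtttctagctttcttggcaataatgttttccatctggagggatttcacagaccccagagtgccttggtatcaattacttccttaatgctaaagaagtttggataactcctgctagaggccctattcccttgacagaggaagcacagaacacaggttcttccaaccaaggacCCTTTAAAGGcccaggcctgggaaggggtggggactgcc
The Lama5 stretch holds 4 GC boxes, more than any other member window, and its window has a GC content of 72.7%, against a median of 52.7% over all windows. The Lama2 stretch holds no GC box before the start, and its window has a GC content of 50.3%.

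The fold changes of the main beta and gamma chains were small. Lamb1, the beta chain of laminin-111, laminin-411 and laminin-511, was at 817, 914 and 903 CPM in wild-type libraries 1 to 3, and 907, 998 and 993 CPM in knockout libraries 1 to 3 (log2 fold change 0.14 with SE 0.07 and adjusted p = 0.126), and the groups overlapped. With the replicate number as a block it passed at adjusted p = 0.000902 (log2 fold change 0.14), and without knockout 1 at adjusted p = 0.0285. Lamc1, the gamma chain of most laminins, was at 374, 419 and 407 CPM in wild-type libraries 1 to 3, and 447, 457 and 457 CPM in knockout libraries 1 to 3 (log2 fold change 0.18 with SE 0.07 and adjusted p = 0.0361), and these groups did not overlap. The call of this small rise was lost under 7 of 14 alternatives, with adjusted p from 0.000223 to 1 over all of them. It was lost without wild type 1 (adjusted p = 0.103), wild type 3 (0.0944), knockout 2 (0.0846) or knockout 3 (0.1). Lamb2, the beta chain of synaptic and vessel laminins, was at 87.0, 117 and 112 CPM in wild-type libraries 1 to 3, and 65.1, 90.7 and 88.3 CPM in knockout libraries 1 to 3 (log2 fold change -0.37 with SE 0.15 and adjusted p = 0.0513). Its libraries numbered 1 were the lowest in both groups, and with the replicate number as a block it passed at adjusted p = 1.45e-07 (log2 fold change -0.37). It also passed without wild type 1 (adjusted p = 0.0112) or knockout 2 (adjusted p = 0.0394).

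Lama3 and Lamb3, chains of the epithelial laminin of hemidesmosomes, both rose from very low levels. Lama3 had 19, 20 and 11 counts in wild type and 47, 51 and 44 in knockout (log2 fold change 1.62 with SE 0.23 and adjusted p = 0.000286). Lamb3 (chromosome 1, 193207699 to 193343878, plus strand, GRCm38) had 5, 4 and 0 counts in wild type and 25, 25 and 27 in knockout, a ratio of 9.25 (95% exact counting interval 4.63 to 21.0; adjusted p = 0.000433). Neither overlapped between the groups. Lamb3 is 1 of the 2 members with a kappa-B match, which lies in both of its overlapping windows. The other is Itga3, which fell by 0.52 on the log2 scale, and 8.46% of all windows hold such a match. Of 4 epithelial markers 1 was tested, Krt18, and it fell from 11.7, 13.5 and 14.2 CPM in the wild-type libraries to 0.493, 0.464 and 0.562 CPM in the knockout libraries (log2 fold change -4.69 with SE 0.15 and adjusted p = 3.4e-08), while Epcam had 5, 4 and 2 counts in wild type and 0, 0 and 1 in knockout. The part of epithelial cells in these levels was not tested. Lamc3, a gamma chain of low level here, had 48, 38 and 47 counts in wild type and 13, 12 and 18 in knockout (log2 fold change -1.51 with SE 0.26 and adjusted p = 0.000936).

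Per length, RNA of the laminin alpha chains was scarcer than that of the beta chains, and more so in knockout. In CPM per kilobase, the summed alpha chains were at 17.3, 24.3 and 22.6 in wild type and 8.65, 11.7 and 10.6 in knockout. Summed beta chains were at 96.7, 111 and 109 in wild type and 102, 116 and 115 in knockout. The ratio of beta to alpha chains was 5.58, 4.58 and 4.85 in wild type and 11.8, 9.90 and 10.8 in knockout, and with the longest transcript as the length 8.66, 7.13 and 7.52 in wild type and 17.8, 15.1 and 16.5 in knockout. On both scales the groups did not overlap. These are ratios of RNA levels, and how evenly reads covered the long transcripts was not tested. With 3 libraries a group an exact permutation test cannot go below 0.10, so none is given.

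The other genes of adhesion were taken from lists by function. Of 23 basement membrane partners of laminin, 21 were tested, 2 rose, 13 fell and 6 did not pass, with a median log2 fold change of -0.49. That is 71.4% called, beside 64% of all genes tested (31.9% higher and 32.1% lower). Nid1, which links laminin to collagen IV, was at 456, 457 and 448 CPM in the wild-type and 463, 443 and 432 CPM in the knockout libraries (log2 fold change -0.02 with SE 0.06 and adjusted p = 0.745). Hspg2, which encodes perlecan, fell from 464, 718 and 655 CPM in the wild-type libraries to 262, 377 and 339 CPM in the knockout libraries (log2 fold change -0.91 with SE 0.17 and adjusted p = 0.00162), and Agrn, which encodes agrin, rose from 113, 150.4 and 145 CPM in the wild-type libraries to 174, 238 and 222 CPM in the knockout libraries (log2 fold change 0.63 with SE 0.14 and adjusted p = 0.00329). For Hspg2 and Agrn both libraries numbered 1 were the lowest of their group. Among the members of smallest p, Nid2, Col4a6, Npnt and Sparc all fell, and Nid2 fell by 1.96 while Npnt, which encodes the alpha8 ligand nephronectin, fell by 4.11 on the log2 scale.

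Matrix ligands of integrins moved both ways. Of 30 genes, 22 were tested, 10 rose, 10 fell and 2 did not pass. That is 90.9% called, beside 64% of all genes tested. The median log2 fold change was -0.12, and the median without sign was 0.983, beside 0.47 in all genes. Fn1, the fibronectin ligand of alpha5beta1, rose from 1809, 2089 and 2009 CPM in the wild-type libraries to 3674, 4004 and 3875 CPM in the knockout libraries (log2 fold change 0.97 with SE 0.08 and adjusted p = 6.63e-06). Spp1, osteopontin, a ligand of alphav and alpha4 chains, rose from 4360.4, 3413 and 3640.1 CPM in the wild-type libraries to 16492, 14534 and 15158 CPM in the knockout libraries (log2 fold change 2.02 with SE 0.11 and adjusted p = 5.02e-07). Tnc, tenascin-C, rose from 555, 642 and 613 CPM in the wild-type libraries to 1602, 1725 and 1689 CPM in the knockout libraries (adjusted p = 4.62e-07). Vwf, von Willebrand factor, rose from 0.725, 0.522 and 0.705 CPM in the wild-type libraries to 5.27, 5.81 and 6.00 CPM in the knockout libraries (adjusted p = 4.24e-07). Fbn2, a fibrillin with an RGD motif, fell by 1.76 on the log2 scale (adjusted p = 4.71e-07 and SE 0.09). Vtn, vitronectin, the ligand of alphavbeta5, had no count in any library.

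Counter-receptors are integrin ligands on cell surfaces, and their RNA was read in the same libraries. Of 14 genes, 7 were tested, 2 rose, 4 fell and 1 did not pass, with a median log2 fold change of -0.24 (85.7% called, beside 64% of all genes tested). F11r and Jam2, junctional ligands of beta2 and beta1 integrins, rose by 1.03 and 1.35 on the log2 scale, and Adam9 fell by 0.46. Icam1, the main ligand of beta2 integrins, had 5, 2 and 5 counts in wild type and 11, 3 and 1 in knockout.

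Adaptors that link integrins to actin moved both ways, with 69.5% called beside 64% of all genes. Of 61 talin, kindlin and other adaptor genes, 59 were tested, 22 rose, 19 fell and 18 did not pass, with a median log2 fold change of 0.10. Tln1 and Fermt2, which encode talin-1 and kindlin-2, the activators of integrins, did not pass. The values were -0.17 (adjusted p = 0.153) and -0.10 (adjusted p = 0.279) on the log2 scale. Ptk2, the focal adhesion kinase, fell from 164, 158 and 157 CPM in the wild-type libraries to 120.5, 115 and 116 CPM in the knockout libraries (log2 fold change -0.45 with SE 0.06 and adjusted p = 0.000197). Ilk, the integrin-linked kinase, fell by 0.63 on the log2 scale, but 89.7% of its exon bases are shared with genes of the other strand. Vcl, vinculin, fell from 868, 867 and 841 CPM in the wild-type libraries to 311, 297 and 295 CPM in the knockout libraries (log2 fold change -1.51 with SE 0.06 and adjusted p = 1.13e-07), with 25.5% shared in this way. Tgfb1i1, which encodes the paxillin relative Hic-5, fell from 15.1, 16.2 and 18.2 CPM in the wild-type libraries to 0.314, 0.171 and 0.358 CPM in the knockout libraries (adjusted p = 3.85e-08). Tns4, a tensin that binds beta1 tails, rose from 3.39, 3.02 and 3.75 CPM in the wild-type libraries to 55.7, 63.6 and 61.4 CPM in the knockout libraries (adjusted p = 1.29e-08). The kinase gene Fyn rose by 1.89 on the log2 scale.

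Receptors of laminin other than integrins include dystroglycan, which needs sugar chains to bind it, and the syndecans. Of 27 genes of this class and of dystroglycan glycosylation, 23 were tested, 3 rose, 12 fell and 8 did not pass, with a median log2 fold change of -0.32. In all, 65.2% were called, close to the 64% of all genes. By direction the list was uneven, with 3 higher and 12 lower of 23, beside 31.9% higher and 32.1% lower of all genes. Dag1, dystroglycan, fell from 260.1, 306 and 291 CPM in the wild-type libraries to 141, 161 and 158 CPM in the knockout libraries (log2 fold change -0.90 with SE 0.08 and adjusted p = 1.94e-05). Pomt1, which starts the sugar chain that laminin binds, fell by 1.01 and the sarcoglycan gene Sgcd fell by 1.19, while the syndecan gene Sdc4 rose by 0.53 on the log2 scale. Among 20 tetraspanins and membrane partners of integrins, 19 were tested, 12 rose, 5 fell and 2 did not pass, with a median log2 fold change of 0.40 (89.5% called, beside 64% of all genes). Slc3a2, the CD98 heavy chain, which binds beta1 and beta3 tails, rose from 189.6, 205 and 205 CPM in the wild-type libraries to 418, 451 and 441 CPM in the knockout libraries (log2 fold change 1.13 with SE 0.07 and adjusted p = 1.05e-06). Plaur, the urokinase receptor, rose by 1.35 and Tspan15 fell by 1.07. Cd44, the hyaluronan receptor, did not pass (log2 fold change 0.06 with SE 0.08 and adjusted p = 0.507).

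**Figure D5:**
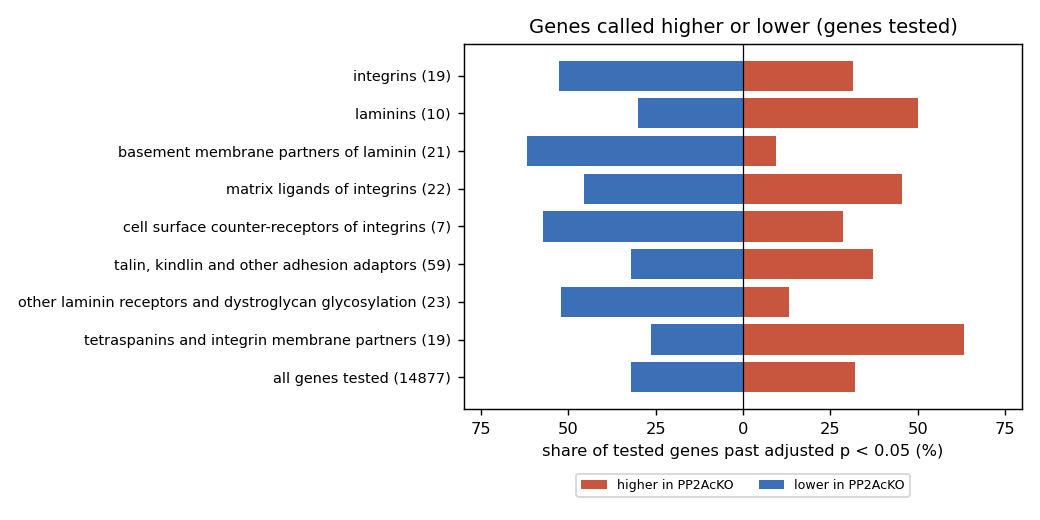
Share of tested genes past an adjusted p of 0.05, higher in knockout to the right and lower to the left, for integrins, laminins, the 6 accompanying lists and all genes tested, with the number tested in brackets. The basement membrane list has 13 of 21 genes on the lower side and the tetraspanin list 12 of 19 on the higher side, while all genes are split nearly evenly at 31.9% and 32.1%.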

How the data were processed

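RNA counts of 6 libraries were used. The authors deposited whole-number counts of reads for each gene symbol. Per the submitters' processing notes, which give no roles, the tools were STAR 2.7.1a, fastp 0.20.0, limma 3.48.3, HTSeq 0.11.2 and edgeR 3.34.0, and GRCm38 (mm10) was the build. For the annotation release and the strand of counting the sources used here give nothing, so reads of genes that overlap on opposite strands cannot be told apart. Each column name matched 1 sample title, and none belonged to another series.

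Genes were kept with filterByExpr of edgeR 4.0.16 (R 4.3.3), which left 14877 genes and 99.94% to 99.95% of the counts. Libraries were scaled by TMM and compared with glmQLFit and glmQLFTest. The adjusted p threshold was 0.05, and the steps were tested on simulated data. The standard error is the log2 fold change divided by the root of F. Values with ± are mean and SD over 3 libraries. Positions, exon lengths and overlaps came from GENCODE M21 (GRCm38), matched by symbol, and promoters from RefSeq (GRCm38.p6).

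The members and lists were chosen with earlier results of these data known. The lists and the rule for named genes were written down with the tests: all members, 16 set genes, and from each list up to 4 genes of smallest adjusted p that reach a mean of 5 CPM in a group. Marker genes come from set lists. The values of 1 member are not reported here. Replicates differed beyond sampling noise (chi-square per degree of freedom 3.41 to 48.4 within groups, over genes with at least 20 counts). Pairs with library 1 were at 29.7 to 48.4, and libraries 2 and 3 at 4.61 in wild type and 3.41 in knockout. All libraries were kept.

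The titles give both groups the numbers 1 to 3. Deviations from the group mean correlated across genes at 0.443, 0.161 and 0.150 for pairs 1, 2 and 3, all above 0.1. Only the libraries numbered 1 stood out as a pair, which is taken from the data and not from the labels. Pairs 2 and 3 did not separate from each other: wild type 3 correlated with knockout 2 at 0.189, and wild type 2 with knockout 3 at 0.150. The main test therefore had no block, and whether libraries 2 and 3 are paired by number is not settled. The alternatives were the replicate block, DESeq2 1.42.0, 2 other scalings, 2 other filters, a test against a fold change of 1.5, and leaving out libraries.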

Additional observations from a re-analysis of the deposited data

How the results depend on the processing

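Over 14 alternatives for the fold changes of the 29 tested genes, 374 of 402 comparisons kept their direction and their side of the threshold, 15 lost the call, 11 gained it and 2 changed sign. The 11 rising and 13 falling genes became 7 and 8 against a fold change of 1.5, a stricter question by construction that Itga3, Itga6, Itgav, Itgb1, Itgb3, Itgb5, Itgb8 and Lamc1, among others, did not pass, and 12 and 15 with the replicate block, which changed the call of Itga7, Lamb1 and Lamb2 and of no other member. Leaving out each library in turn gave 10 to 12 rising and 13 to 14 falling. Without knockout 1 the log2 fold change of Itga1 was -0.061 (adjusted p = 0.624) and that of Itga7 0.024 (adjusted p = 0.839), both opposite in sign to the values with all libraries and neither past the threshold. Leaving out each library in turn gave -0.061 to 0.21 for Itga1 and -0.17 to 0.024 for Itga7. With a filter of 1 CPM on the mean, 9 rose and 12 fell, and Lama3, Lamb3 and Lamc3 were not among the genes tested. Lamb2 passed in 7 alternatives and Lamc1 lost its call in 7. With the longest transcript as the length, the shares in wild type and knockout were 26.7% and 16.5% for Itga3, 19.4% and 36.3% for Itga5, 14.5% and 17.8% for Itga6, 91.8% and 84.1% for Lama5, 89.1% and 92.0% for Lamb1, and 91.9% and 90.0% for Lamc1, each moved by more than its SD and each still in the same direction between the groups. With no filter on low counts 36 members were tested, 10 rose and 15 fell. Of the genes below the filter, Itga11 passed there (-3.23 on the log2 scale, adjusted p = 0.00437), and the other tested ones had adjusted p from 0.302 to 0.759.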

Other observations

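Several genes that carry the integrin name without being receptor chains also moved. They lie outside the list by its rule and were chosen after their values were seen. Itgbl1, a secreted protein with integrin-like EGF repeats, fell from 206, 208 and 216 CPM in the wild-type libraries to 51.9, 58.3 and 59.4 CPM in the knockout libraries (log2 fold change -1.89 with SE 0.07 and adjusted p = 1e-07). Itgb1bp1, which encodes ICAP1, a protein that binds the beta1 tail and holds the receptor inactive, rose from 18.2, 16.9 and 17.8 CPM in the wild-type libraries to 26.6, 26.0 and 26.4 CPM in the knockout libraries (log2 fold change 0.58 with SE 0.07 and adjusted p = 0.000145). Itgb1bp2, melusin of muscle, had 27, 23 and 27 counts in wild type and 13, 9 and 11 in knockout (log2 fold change -1.11 with SE 0.27 and adjusted p = 0.00569). Itgb3bp, a centromere protein gene despite its name, did not pass (log2 fold change -0.17 with SE 0.24 and adjusted p = 0.567), and in both groups its level was highest in library 1. Itgb2l, a relative of Itgb2, had 1 count in 1 knockout library.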
